A study of Homo sapiens with 68 samples.

Results

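The sites described here are stretches of RNA at which peaks of hnRNP C and of hnRNPA1 overlapped, while no peak of hnRNPI or RBFOX2 did. They were chosen by measured values, namely the peak lists of the 8 libraries made from 50000 cells without gel purification. A site is a peak of hnRNP C replicate 1 that was overlapped by at least 1 nt on the same strand in hnRNP C replicate 2 and in both hnRNPA1 libraries, and by no peak of either hnRNPI or either RBFOX2 library. Of 441289 peaks of hnRNP C replicate 1, 209379 were also in replicate 2 and are called reproducible below. Of these, 23570 were in both hnRNPA1 libraries, and 12806 of those were in no hnRNPI or RBFOX2 library. These 12806 shared sites are 6.12% of the reproducible hnRNP C peaks and 54.3% of those with both hnRNPA1 libraries. Peaks were counted as listed, so a stretch listed under different genes would count as separate sites. All 68 lists of the series together hold 15800601 peaks.

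The series profiled RNA bound by 4 proteins with TLC-CLIP, in which ultraviolet light links protein to RNA, 1 protein is immunoprecipitated and the attached RNA fragments are sequenced. All libraries come from HEK293T, a human embryonic kidney cell line, in 34 groups of 2 replicates. The antibodies were against hnRNPA1 (4B10), hnRNP C1/2 (4F4), hnRNPI (SH54) and RBM9, the antibody used for RBFOX2. The question put to these sites is where the peaks of hnRNPA1 and hnRNP C coincide without the other 2 proteins, and how far that holds in libraries the choice did not use.

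The groups share the cell line, and differ as follows. The 50k libraries without PAGE (excision of the protein and RNA complexes from a gel) used 0.005 U of RNase, and exist for each protein with and without RecJ, an exonuclease step against leftover adapter. The low RNase libraries went through PAGE with 0.005 U for each of the 4 proteins, and the medium RNase libraries with 0.025 U for hnRNPA1 and hnRNP C. For hnRNP C there are further libraries titled 5k and 500 without PAGE at 0.005 U, although their labels give 50000 cells, and libraries of 10000 cells at 0.001 U and 1000 cells at 0.0001 U. Background libraries hold 4 other gel regions of the hnRNP C antibody from 10000 cells at 0.001 U. The noUV libraries were made for all 4 antibodies from 50000 cells at 0.005 U, with and without PAGE. They are taken to be uncrosslinked from their titles and the series description, since the protocol text is the same for all samples and describes crosslinking. The labels do not say that replicates are separate cultures, so every p-value measures only the spread between these libraries. The tests took single libraries as the unit, also where these came from the same antibody. No p-value therefore measures the spread between antibodies or proteins.

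hnRNP C is an abundant nuclear protein that packages nascent transcripts and binds uridine-rich tracts, and is known for keeping cryptic exons, many from Alu repeats, out of messenger RNA. hnRNPA1 shuttles between nucleus and cytoplasm, prefers UAG-containing elements and often represses splicing. hnRNPI, also called PTBP1, binds pyrimidine-rich RNA, and RBFOX2 binds GCAUG elements, both as regulators of alternative exons. The sequences of the sites were not analysed here, because no genome of the build of the lists was used.

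List lengths ranged from 157375 peaks (RBFOX2 replicate 1) to 523402 (hnRNPA1 replicate 2) in the 8 libraries of the rule. Sequencing totals are missing from the sources used here, which leaves depth unknown and allows no counting interval. A peak missing from a list means only that none was listed there. One library stands apart: hnRNP C at low RNase, replicate 1, lists 3268 peaks against 214849 in replicate 2. The 2 tests that use it are also given without it, as are the recurrence counts and the signed distances.

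The shared sites lay in 4793 of the 11891 genes that held a reproducible hnRNP C peak. Genes are given by the versioned Ensembl identifiers of the lists, because the lists do not pair them with names. A single site was found in 2123 of these genes, and 127 genes held at least 10 sites each, 1884 sites in total. Some identifiers may cover the same peaks. ENSG00000125459.9 and ENSG00000203761.4, both on the plus strand of chromosome 1, each had 9 sites among 63 reproducible peaks. Whether these are the same stretches was not checked. The 10 genes with most sites held 360 sites, 2.81% of all. Sites were therefore spread over many transcripts, and their number per gene followed the gene's number of reproducible hnRNP C peaks (Spearman's rho 0.674 across 11891 genes). The correlation is a description only. The sites are part of the reproducible peaks, so a positive value is partly built in. Both numbers may also depend on expression and gene length, which were not measured here.

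ENSG00000229807.5, on the minus strand of chromosome X, held the most sites, with 65 among its 189 reproducible hnRNP C peaks (34.4%). The 65 sites lay within 29.1 kb. Their median read number in hnRNP C replicate 1 was 876 and the highest was 1984, which is also the highest of all shared sites. Here the read number is the last number in a peak's name, which the sources do not explain. Of the 65 sites, 59 recurred in both hnRNPA1 RecJ libraries, 63 in both hnRNP C RecJ libraries, and 0 in both hnRNPI or both RBFOX2 RecJ libraries. Another 70 reproducible hnRNP C peaks of this gene had no peak of any other protein.

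The second gene, ENSG00000145147.14 on chromosome 4, held 48 sites among 389 reproducible peaks (12.3%), spread over 269 kb, with a median read number of 55.5. In the other 8 of the 10 genes the sites numbered 24 to 40, made up between 7.73% and 12% of the reproducible peaks and spanned 171 to 1172 kb, with median read numbers of 12 to 29. The leading gene thus differed from the other 9 in read number and in how densely its sites lay.

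Among the 3285 genes with at least 20 reproducible hnRNP C peaks, the share of peaks that were shared sites had a median of 5.03% and quartiles of 2.63% and 8.82%. It was 0 in 573 of them and above 20% in 52. The highest share was 42.9%, 9 of 21 peaks, in ENSG00000242125.1 on chromosome 1, whose 9 sites lay within 2.4 kb. All 9 recurred in both hnRNP C RecJ libraries and 8 in both hnRNPA1 RecJ libraries. Also on chromosome 1, ENSG00000162775.10 had 10 of 27 (37.0%). The next genes in this order held 7 of 20, 8 of 23, and the 65 of 189 described above. In 4 of these 5 genes the sites lay within 8.94 kb, whereas in the 10 genes with most sites they spanned 29.1 to 1172 kb.

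**Figure D1:**
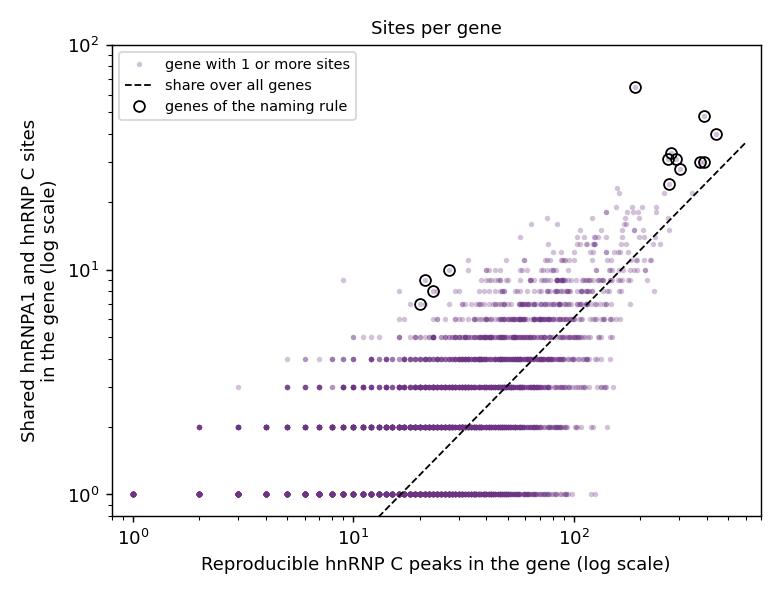
Shared hnRNPA1 and hnRNP C sites in each gene (vertical, log scale) against the gene's reproducible hnRNP C peaks (horizontal, log scale), 1 point for each of the 4793 genes with a site. The dashed line is the share over all genes, 6.12%, and the open circles are the genes named by rule, of which ENSG00000229807.5 is the highest with 65 sites.

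By chromosome, the share of reproducible hnRNP C peaks that were shared sites ran from 4.27% on chromosome 19 to 7.34% on chromosome 13. Chromosome 1 held the most, 1524. None of 137 reproducible mitochondrial peaks was a shared site. The plus strand carried 6616 sites and the minus strand 6190. Of all shared sites, 2109 (16.5%) lay less than 30 nt from another one, and joining these gave 11663 separate clusters. The 2109 may include stretches listed under different genes. The median gap to the nearest other shared site was 3717 nt.

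Shared sites were 72 nt wide at the median (quartiles 51 and 97 nt). Peaks of hnRNP C only, which are reproducible and overlap no peak of the other 3 proteins, numbered 129593 and were 66 nt wide. Those shared with both hnRNPI libraries only numbered 8607 and were 72 nt wide, and those with all 8 libraries numbered 1838 and were 65.5 nt wide. These widths and the read numbers in the next paragraph come from libraries of the rule and are descriptions.

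Read numbers at the shared sites were alike in the 4 libraries that defined them. The median was 19 in hnRNP C replicate 1 (quartiles 12 and 32), 20 in replicate 2 (12 and 34), 20 in hnRNPA1 replicate 1 (12 and 35) and 21 in replicate 2 (12 and 36). Each list as a whole had a median of 11, and the site medians stood at the 77.1 to 78.7 percentile of their lists. In hnRNP C replicate 1 the median was 14 for hnRNP C only, 17 for hnRNP C with hnRNPI and 38 for sites of all 4 proteins. Across the 12806 sites, read numbers of replicates correlated with a Spearman's rho of 0.802 for hnRNP C and 0.808 for hnRNPA1, and those of different proteins with 0.367 to 0.395. A site with many hnRNP C reads therefore had a loosely related number of hnRNPA1 reads. These correlations describe sites, which share a transcript and its abundance, and no test was run on them.

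The named sites were picked for high read numbers in all 4 libraries, so they are strong for both proteins by choice (coordinates in hg19, the build in the submitters' processing notes, 1-based). The first by worst rank over the 4 libraries was chrX:73061541-73061609 on the minus strand in ENSG00000229807.5. It had 1532 and 1602 reads in hnRNP C replicates 1 and 2, and 1782 and 2153 in hnRNPA1 replicates 1 and 2. The hnRNPA1 replicate 1 centre lay 1 nt downstream of the hnRNP C replicate 1 centre. It was listed in all 6 hnRNPA1 and all 6 hnRNP C libraries with RecJ, low or medium RNase and in 0 of 8 hnRNPI and RBFOX2 libraries. Without crosslinking it was listed in 4 of 4 hnRNPA1 libraries and in 0 of 4 hnRNP C libraries. This is a site where both proteins gave high read numbers and only 1 antibody gave a peak without crosslinking.

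The second was chr11:65268836-65268912 on the plus strand in ENSG00000251562.3, a gene with 6 sites. It had 773 and 943 reads in hnRNP C and 1027 and 1131 in hnRNPA1. It was also listed in 2 of the 8 hnRNPI and RBFOX2 libraries outside the rule. The third was chrX:107970798-107970888 on the minus strand in ENSG00000260548.1, with 706 and 687 reads in hnRNP C and 897 and 721 in hnRNPA1, and it was listed in 0 of 4 hnRNPA1 and 2 of 4 hnRNP C libraries without crosslinking.

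The other 3 were on chromosomes 5, 22 and 1, with 237 to 424 reads in hnRNP C and 253 to 529 in hnRNPA1. At chr5:179041394-179041537 on the minus strand, the hnRNPA1 centre lay 68 nt upstream of the hnRNP C centre, while the centres of the hnRNP C replicates differed by 7 nt. At chr1:245012784-245012887 on the minus strand, it lay 70 nt downstream, and the hnRNP C replicates had the same centre. At chr22:38886302-38886376 on the minus strand the centres were 4 nt apart. Among these 6 sites, then, overlapping peaks had both near-coincident and well separated centres.

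Recovery asks how many of the 12806 sites were overlapped by a peak in libraries the rule did not use. In the RecJ libraries, hnRNPA1 recovered 72.4% in replicate 1 and 75.5% in replicate 2, and hnRNP C 65.0% and 71.6%. hnRNPI recovered 5.58% and 5.44%, and RBFOX2 6.25% and 5.98%. In the low RNase libraries with PAGE, hnRNPA1 recovered 65.3% and 63.7%, and hnRNP C 3.05% and 49.7%, the first value being that of the library with 3268 peaks. There hnRNPI recovered 6.14% and 5.07%, and RBFOX2 10.4% and 7.77%. Apart from that library, every hnRNPA1 and hnRNP C value lay above every hnRNPI and RBFOX2 value.

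The mean over the 16 libraries was 58.3% for hnRNPA1 and hnRNP C and 6.58% for hnRNPI and RBFOX2, a difference of 51.7 percentage points. The exact two-sided permutation test over libraries, relabelled within protocol, gave p = 0.00204, and 0.00306 after Benjamini-Hochberg adjustment over the 6 tests made. This p takes libraries of the same protein as separate units and does not measure the spread between proteins. Without hnRNP C low RNase replicate 1 the difference was 59.6 percentage points and the exact permutation p was the smallest that 4900 relabellings allow, 0.000408. List lengths were unequal, at 160340 to 260610 peaks for RBFOX2, 294597 to 342529 for hnRNPI and 450313 to 515303 for hnRNPA1. After subtraction of the overlap of sites moved by 1000 nt, the difference was 43.5 percentage points (exact permutation p 0.000408). The part of list length was not tested.

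Against the background of all reproducible hnRNP C peaks, the hnRNPA1 share in the RecJ libraries stood out and the hnRNP C share did not. Both hnRNPA1 RecJ libraries overlapped 7858 sites (61.4%), beside 10.4% of all reproducible hnRNP C peaks. Both hnRNP C RecJ libraries overlapped 6951 sites (54.3%), beside 52.7% of all. For hnRNPI the count was 166 sites (1.30%) beside 7.83%, and for RBFOX2 190 sites (1.48%) beside 4.24%. The rule required hnRNPA1 peaks and barred the other 2 proteins, so these directions are those of the choice, seen again in other libraries of the same antibodies. Peaks of hnRNP C only also lack hnRNPI and RBFOX2 peaks by choice. Their shares in both RecJ libraries were lower than at the shared sites, 0.669% for hnRNPI and 0.319% for RBFOX2.

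With PAGE, both low RNase libraries of hnRNPA1 overlapped 6808 sites (53.2%) beside 8.92% of all reproducible peaks, and both of hnRNP C 365 sites (2.85%) beside 1.52%, a count limited by replicate 1. In replicate 2 alone, hnRNP C overlapped 49.7% of the sites, above the 33.6% of all reproducible peaks. The counts were 146 sites (1.14%) beside 3.69% for hnRNPI and 432 sites (3.37%) beside 3.86% for RBFOX2. That background includes peaks of hnRNPI and RBFOX2, which the rule barred at the shared sites. Peaks of hnRNP C only, which also lack them, had lower shares, 0.275% for hnRNPI and 0.445% for RBFOX2. At medium RNase, hnRNPA1 overlapped 6162 sites (48.1%) beside 9.07%, and hnRNP C 3909 sites (30.5%) beside 32.3%.

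**Figure D2:**
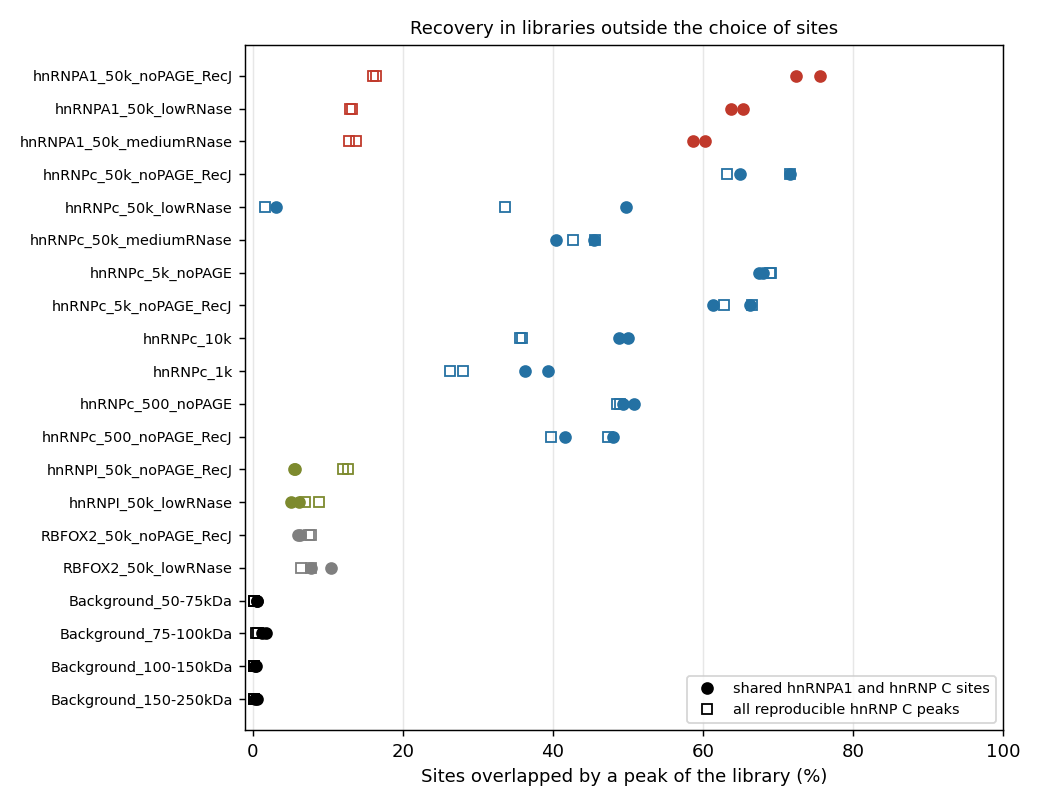
Percent of sites overlapped by a peak in each library (2 points per group, 1 for each replicate), for the 12806 shared sites (filled circles) and for all 209379 reproducible hnRNP C peaks (open squares). In the hnRNPA1 libraries the shared sites sit between 58.6% and 75.5% and all peaks below 17%, while in most hnRNP C libraries circles and squares lie close together.

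Moved by 1000 nt along the strand, the sites were still overlapped in 16.4% to 20.6% by hnRNPA1 and in 6.36% to 18.6% by hnRNP C, as group means over the RecJ, low and medium RNase libraries. In the low RNase and RecJ libraries, the moved sites were overlapped in 8.06% and 9.73% by hnRNPI and in 8.21% and 6.28% by RBFOX2. At the sites themselves the hnRNPI shares were 5.60% and 5.51%, both below those after moving. The mean RBFOX2 share was 9.09% at low RNase, with replicates of 10.4% and 7.77% on either side of the moved share. With RecJ it was 6.12%, near the moved share. The rule barred peaks of both proteins in other libraries, so these values are descriptions.

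Libraries with fewer cells were set beside the background without a test, since 2 libraries a group allow no exact p below 0.05. The libraries titled 5k recovered 67.7% ± 0.348 (SD, n = 2) without RecJ and 63.8% ± 3.47 (SD, n = 2) with it. Those titled 500 recovered 50.05% ± 1.05 (SD, n = 2) and 44.7% ± 4.54 (SD, n = 2). With PAGE, recovery was 49.4% ± 0.839 (SD, n = 2) at 10000 cells and 37.8% ± 2.13 (SD, n = 2) at 1000 cells. Sites in both libraries numbered 6889 (53.8%, beside 55.3% of all reproducible peaks) for 5k, 6301 (49.2% beside 49.9%) for 5k with RecJ, 4375 (34.2% beside 32.4%) for 500 and 3558 (27.8% beside 26.6%) for 500 with RecJ. They numbered 4521 (35.3% beside 23.9%) at 10000 cells and 3095 (24.2% beside 15.8%) at 1000 cells. Without PAGE these shares were near the background, and at 10000 and 1000 cells with PAGE they were above it. That difference was not tested, and RNase amount differs there too.

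The lists of the 4 other gel regions of the hnRNP C antibody were short, at 303 to 6716 peaks, and overlapped few of the sites. List length limits how many sites a list can overlap, so these low shares do not show absence from a region. The 75 to 100 kDa region overlapped 1.81% and 1.22% of sites, and the other 3 regions 0.312% to 0.586%. Sites in both libraries of a region numbered 47 (0.367% beside 0.110%) at 50 to 75 kDa, 53 (0.414% beside 0.135%) at 75 to 100 kDa, 25 (0.195% beside 0.0888%) at 100 to 150 kDa and 20 (0.156% beside 0.0907%) at 150 to 250 kDa.

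Recurrence over the 12 hnRNPA1 and hnRNP C libraries with RecJ, low or medium RNase varied widely among sites. All 6 hnRNPA1 libraries listed 4001 sites (31.2%, beside 4.48% of all reproducible hnRNP C peaks), and 684 (5.34% beside 69.7%) were in none of them. All 6 hnRNP C libraries listed 286 sites (2.23% beside 1.25%), a number held down by low RNase replicate 1, and the 5 others listed 2386 (18.6% beside 15.3%). Leaving that library out, 964 sites (7.53% beside 1.33%) were in all 11. Their median read number was 43 and their median width 96 nt, against 18 and 70 nt for the remaining 11842. In none of the 12 libraries were 77 sites (0.601% beside 7.96%). The shares with hnRNPA1 thus differed most from those of all peaks, and the rule required hnRNPA1. Of the shared sites, 8585 (67.0% beside 69.5%) were in none of the 8 RecJ and low RNase libraries of hnRNPI and RBFOX2, among them 490 of the 964. That share is near the background, which includes peaks of hnRNPI and RBFOX2 that the rule barred at the shared sites. The remaining 4221 were listed in at least 1 of those 8 libraries, although the rule had found no peak in the 4 it used.

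Presence in the other libraries was more frequent at sites with more reads of the same protein. In both hnRNP C RecJ libraries, 14.0% of the 959 sites with 4 to 7 reads in hnRNP C replicate 1 were listed, and 96.2% of the 955 sites with 64 or more. In both hnRNPA1 RecJ libraries the same sites were listed in 54.4% and 78.1%. Ordered by hnRNPA1 replicate 1 reads instead, hnRNPA1 RecJ presence ran from 26.0% of 913 sites with 4 to 7 reads to 92.9% of 1121 sites with 64 or more, and hnRNP C RecJ presence from 45.5% to 69.6%. Each protein's recovery therefore followed its own reads more steeply than those of the partner.

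**Figure D3:**
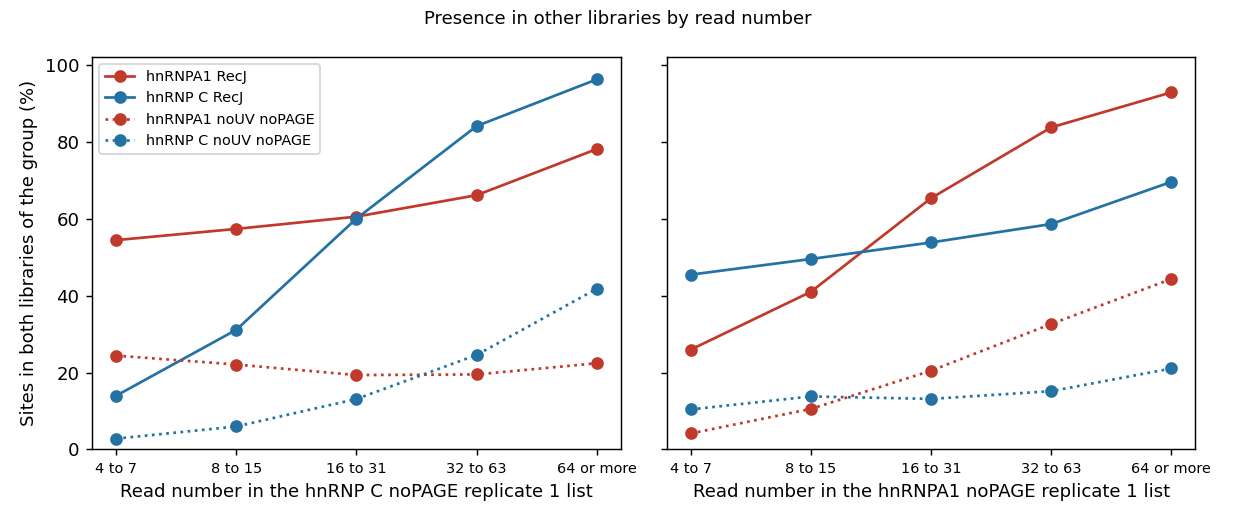
Percent of shared sites listed in both libraries of a group, by read number in hnRNP C replicate 1 (left) and hnRNPA1 replicate 1 (right), for RecJ libraries (solid) and noUV libraries without PAGE (dotted) of hnRNPA1 (red) and hnRNP C (blue). On the left the blue solid line climbs from 14.0% to 96.2%, and on the right the red solid line climbs from 26.0% to 92.9%.

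Peak centres compare positions within a site. The centre is the midpoint of the inner interval of 1 to 4 nt that the lists give for each peak, and for each library the overlapping peak nearest to the site's centre was used. In the RecJ libraries, centres of the hnRNP C replicates lay a median of 13 nt apart over 6951 sites, and those of the hnRNPA1 replicates 12 nt over 7858 sites. Centres of hnRNPA1 and hnRNP C lay 21 nt apart in replicate 1 (6079 sites) and 21 nt in replicate 2 (6994 sites). Within 10 nt were 43.2% and 46.5% of sites for the replicates and 30.2% and 29.6% for the different proteins. More than 30 nt apart were 24.8% and 21.4% for the replicates and 38.9% and 38.5% for the different proteins.

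Over the 12 libraries with RecJ, low or medium RNase, the 36 pairs of different proteins had median distances of 19 to 34 nt. The 15 hnRNPA1 pairs had 6 to 12 nt and the 15 hnRNP C pairs 8 to 19 nt, so the ranges meet at 19 nt. The mean was 24.5 nt for different proteins and 13.1 nt for the same protein, a difference of 11.4 nt. The exact two-sided permutation p was 0.00926, the smallest that 216 relabellings allow, and 0.0111 after adjustment. Without hnRNP C low RNase replicate 1, the 30 pairs of different proteins still had 19 to 34 nt and the 10 hnRNP C pairs 8 to 19 nt. The difference was then 11.7 nt (exact permutation p 0.00926).

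The distance between proteins varied among sites in the RecJ replicate 1 libraries. For sites up to the median width it was 18 nt, against 11 nt between replicates of either protein, and for wider sites 26 nt, against 14 nt for hnRNP C and 13 nt for hnRNPA1. At 20 or more reads it was 23 nt, against 12 and 11 nt, and below 20 reads 19 nt, against 14 and 12 nt. Sites of all 4 proteins had, by the measure over 12 libraries, 9.93 nt between proteins and 7.65 nt within, a difference of 2.28 nt, and all 23570 sites with both hnRNPA1 libraries 20.2 and 11.8 nt, a difference of 8.33 nt. The difference between these classes was not tested.

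Direction along the transcript was weaker than distance. The signed median, hnRNPA1 minus hnRNP C, was above 0 (downstream) in 31 of the 36 pairs, 0 in 3 and below in 2, and ranged from −2 to 8 nt. Without hnRNP C low RNase replicate 1 it was above 0 in 27 of 30 pairs, 0 in 1 and below in 2, and ranged from −2 to 6 nt. In RecJ replicate 1, 39.7% of sites had the hnRNPA1 centre more than 10 nt downstream and 30.1% more than 10 nt upstream. Between the hnRNP C replicates these shares were 28.1% and 28.6%. The pairs share libraries, so these counts were not tested.

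**Figure D4:**
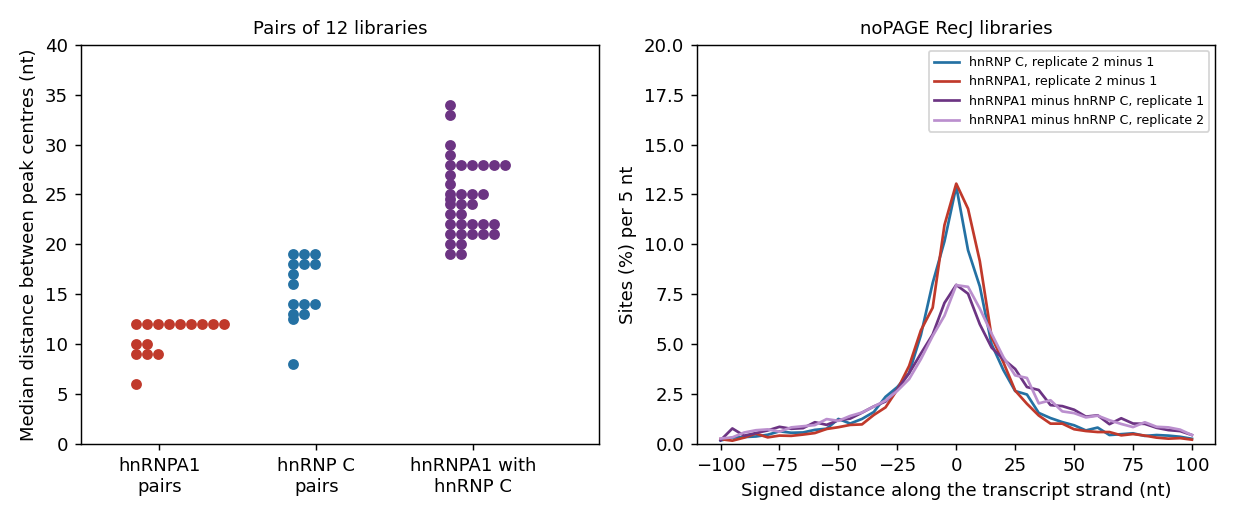
Left, median distance between peak centres at the shared sites in nt, 1 point for each pair of the 12 libraries with RecJ, low or medium RNase. Right, percent of sites in steps of 5 nt of signed distance along the strand in the RecJ libraries. Pairs of different proteins lie at 19 to 34 nt and pairs of the same protein at 6 to 19 nt, and the curves of different proteins are lower at 0 and broader.

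The noUV libraries ask which sites have a listed peak when crosslinking is omitted. With PAGE, the hnRNPA1 antibody overlapped 28.8% and 26.4% of the shared sites in replicates 1 and 2, and the hnRNP C antibody 35.2% and 28.8%. The hnRNPI antibody overlapped 0.570% and 0.968%, and the RBFOX2 antibody 1.09% and 0.797%. Without PAGE the values were 25.5% and 29.4% for hnRNPA1, 26.1% and 26.9% for hnRNP C, 0.836% and 1.89% for hnRNPI, and 1.39% and 1.56% for RBFOX2. All 8 libraries of the first 2 antibodies lay above all 8 of the others.

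The mean was 28.4% for the hnRNPA1 and hnRNP C antibodies and 1.14% for the hnRNPI and RBFOX2 antibodies, a difference of 27.2 percentage points. The exact two-sided permutation p was 0.000408, the smallest that 4900 relabellings allow, and 0.00122 after adjustment. It takes libraries of the same antibody as separate units and does not measure the spread between antibodies. The rule required crosslinked peaks of the first 2 proteins and barred those of the others, so this direction is that of the choice, seen in noUV libraries of the same antibodies. Over all reproducible hnRNP C peaks the group means were also higher for hnRNP C (33.3% with PAGE and 31.2% without) and hnRNPA1 (5.31% and 5.79%) than for hnRNPI (1.25% and 2.96%) and RBFOX2 (1.49% and 2.43%). List length moved with this result: the noUV lists of the first 2 antibodies held 146915 to 299616 peaks and those of the other 2 held 18690 to 78945. The part of list length in the difference was not tested; after subtraction of the overlap of sites moved by 1000 nt, the difference was 18.5 percentage points (exact permutation p 0.000408).

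Beside the background, the hnRNPA1 antibody again stood out and the hnRNP C antibody did not. Both noUV hnRNPA1 libraries with PAGE overlapped 2658 sites (20.8%) beside 3.90% of all reproducible hnRNP C peaks, and both without PAGE 2671 (20.9%) beside 4.23%. For the hnRNP C antibody the counts were 2306 (18.01%) beside 19.6% with PAGE and 1822 (14.2%) beside 18.8% without. For hnRNPI they were 12 (0.0937%) beside 0.467% and 38 (0.297%) beside 1.71%. For RBFOX2 they were 29 (0.226%) beside 0.815% and 58 (0.453%) beside 1.49%. That background includes crosslinked peaks of hnRNPI and RBFOX2, which the rule barred at the shared sites. Peaks of hnRNP C only had lower shares, 0.0193% and 0.136% for hnRNPI and 0.0316% and 0.0702% for RBFOX2. For the hnRNP C antibody that class had 15.6% with PAGE, below the shared sites, and 15.1% without PAGE, above them.

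Shared sites were then compared with the 3 other classes of reproducible hnRNP C peaks in each of the 16 noUV libraries. Against peaks of hnRNP C only, the mean share was 14.8% at shared sites and 7.37% in the other class, a difference of 7.39 percentage points, higher in 14 of 16 libraries. The exact two-sided sign-flip permutation test gave p = 0.000732, or 0.00146 adjusted. With sites of at least 20 reads the difference was 5.52 percentage points (exact permutation p 0.109), with the class weighted to the same read numbers 5.59 (exact permutation p 0.110), and with an overlap of at least 50% of a site 4.35 (exact permutation p 0.0744), so the call was lost under these 3 settings. Over the 8 libraries of the hnRNPA1 and hnRNP C antibodies alone it was 14.03 percentage points (exact permutation p 0.0469). By antibody the difference was 26.9 ± 1.78 percentage points (SD, n = 4 libraries) for hnRNPA1, 1.17 ± 2.65 for hnRNP C, 0.590 ± 0.332 for hnRNPI and 0.918 ± 0.263 for RBFOX2. The excess was thus carried by the hnRNPA1 antibody, whose crosslinked peaks the rule required, and for the hnRNP C antibody it was smaller than the spread between libraries.

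Against peaks shared by hnRNP C and hnRNPI only, the difference was 1.66 percentage points (14.8% and 13.1%), higher in 8 of 16 libraries, and the exact sign-flip permutation p was 0.689 (0.689 adjusted). Over the 8 libraries of the hnRNPA1 and hnRNP C antibodies alone it was 5.65 percentage points (exact permutation p 0.477). The difference had opposite signs by antibody. It was 26.8 ± 1.81 percentage points for hnRNPA1 and 0.482 ± 0.108 for RBFOX2, and −15.5 ± 4.26 for hnRNP C and −5.16 ± 3.39 for hnRNPI (SD, n = 4 libraries each). For hnRNPA1 and hnRNPI these signs are those of the choice of the classes. The hnRNP C antibody overlapped 29.2% of the shared sites and 44.8% of the hnRNP C and hnRNPI sites, and was lower at the shared sites in 4 of 4 libraries.

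Against sites of all 4 proteins, shared sites were lower in 16 of 16 libraries, at 14.8% and 65.2%, a difference of −50.5 percentage points. The exact permutation p was 3.05e-05, the smallest that 65536 sign flips allow, and 0.000183 after adjustment. The class of all 4 proteins required hnRNPI and RBFOX2 peaks, which the rule barred at the shared sites. For those antibodies the direction is thus that of the choice of classes. Over the 8 libraries of the hnRNPA1 and hnRNP C antibodies alone the difference was −46.7 percentage points. There the exact permutation p was 0.00781, the smallest possible. By antibody the difference ran from −42.4 ± 3.87 percentage points for hnRNPA1 to −57.7 ± 8.42 for RBFOX2 (SD, n = 4 each). Sites of all 4 proteins had more reads, a median of 38 against 19, and with that class weighted to the same read numbers the direction and call were the same.

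**Figure D5:**
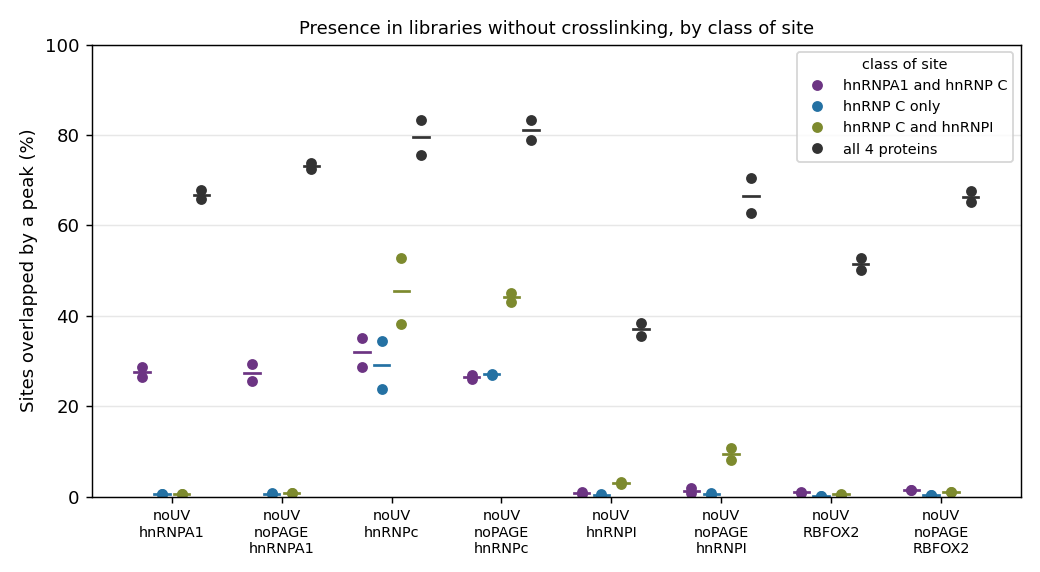
Percent of sites overlapped by a peak in each noUV library (points, 2 replicates a group, bar at their mean), by class of site. Shared hnRNPA1 and hnRNP C sites (purple) lie at 25.5% to 35.2% for both their antibodies and at most at 1.89% for the other 2, and sites of all 4 proteins (black) lie above them in every library.

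Within the shared sites, 5325 (41.6%, beside 8.94% of all reproducible hnRNP C peaks) were listed in at least 1 of the 4 noUV hnRNPA1 libraries and 7331 (57.2% beside 59.3%) in at least 1 of the 4 noUV hnRNP C libraries. Both antibodies had at least 1 listing at 3380 sites (26.4% beside 6.76%). The hnRNPA1 antibody without the hnRNP C antibody had one at 1945 (15.2% beside 2.18%), and the reverse held at 3951 (30.9% beside 52.6%). None of these 8 libraries listed the remaining 3530 sites (27.6% beside 38.5%), and 797 sites (6.22% beside 7.18%) were in at least 1 noUV library of hnRNPI or RBFOX2. Fewer sites were listed throughout: 2053 (16.0% beside 3.11%) in all 4 hnRNPA1 libraries, 1077 (8.41% beside 11.0%) in all 4 hnRNP C libraries and 286 (2.23% beside 1.09%) in all 8. For the hnRNP C antibody alone the shared sites were thus at or below this background, and for hnRNPA1 above it. The background includes peaks of hnRNPI and RBFOX2, which the rule barred at the shared sites.

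The sites that recurred without crosslinking had higher read numbers of the same protein with it. The 2053 sites of all 4 noUV hnRNPA1 libraries had a median of 34 reads in crosslinked hnRNPA1 replicate 1 and 18 in hnRNP C replicate 1. The 1077 sites of all 4 noUV hnRNP C libraries had 25 and 41, and the 3530 sites in none of the 8 had 16 and 15. Both noUV hnRNPA1 libraries without PAGE listed 4.16% of sites with 4 to 7 hnRNPA1 reads and 44.3% of those with 64 or more, and the matching hnRNP C libraries listed 2.82% and 41.8% by hnRNP C reads. Ordered by the partner's reads, the hnRNPA1 shares were 24.4% and 22.4%, and the hnRNP C shares 10.4% and 21.1%. At the sites of all 4 noUV hnRNPA1 libraries, hnRNPA1 and hnRNP C centres in RecJ replicate 1 were 17 nt apart, against 8 nt between hnRNPA1 replicates and 13 nt between hnRNP C replicates. At the 7481 sites in none of those 4 they were 23 nt apart, against 14 and 13 nt.

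The strongest shared site without crosslinking and PAGE was chr11:65268836-65268912, already described, with 402 and 454 reads for the hnRNPA1 antibody and 794 and 1177 for the hnRNP C antibody. It was also listed in 5 of 8 noUV hnRNPI and RBFOX2 libraries. The second, chrX:107971012-107971096 on the minus strand in ENSG00000260548.1, had 903 and 1232 reads for hnRNPA1 and 248 and 325 for hnRNP C. It was listed in 2 of those 8 libraries. With crosslinking it had 690 and 689 for hnRNPA1 and 397 and 420 for hnRNP C. The third, chrX:73045817-73045881 on the minus strand in ENSG00000229807.5, had 293 and 251 for hnRNPA1 and 518 and 869 for hnRNP C. It was listed in 5 of the 8 noUV hnRNPI and RBFOX2 libraries. With crosslinking it was listed in 2 of 6 hnRNPA1 and 2 of 6 hnRNP C libraries with RecJ, low or medium RNase. Read numbers of different libraries are unscaled, so the order of sites within a library is what can be read from them.

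The rule has a threshold at 1 nt of overlap and at 0 listed peaks of hnRNPI and RBFOX2. The smaller of a site's overlaps with the 2 hnRNPA1 libraries had a median of 36 nt (quartiles 20 and 54 nt), and was at most 10 nt at 1402 sites. These 1402 were recovered in 55.2% by hnRNPA1 RecJ libraries and in 62.2% by hnRNP C RecJ libraries (group means), against 76.3% and 69.1% for the other 11404. Just outside, 139 reproducible hnRNP C peaks overlapped no hnRNPA1 peak but had one within 10 nt in both libraries, and were recovered in 27.3% and 70.5%. A further 17526 peaks overlapped only 1 of the 2 hnRNPA1 libraries and no hnRNPI or RBFOX2 peak, with 30.2% and 66.2%. Another 4082 had both hnRNPA1 libraries and were kept out by 1 of the 4 hnRNPI and RBFOX2 libraries, with 79.8% and 73.6%, and 20.4% and 21.3% in the RecJ libraries of hnRNPI and RBFOX2. These values lie around the choice itself and were not tested.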

How the data were processed

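Each library has 1 peak list with chromosome, start, end, name, p-value, strand and an inner interval. The p-values are the deposited values of the authors' peak caller for each peak, and peaks were listed per library. The last number of each name, at least 4, is deposited without explanation and was read as reads over the peak. Peaks were called with CLIPper, per the deposited file names. The submitters' processing notes name hg19, bcl2fastq, STAR 2.7.3a and UMI-tools 1.0.1, with no role given. No other step is named in the labels or file names.

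Overlaps (at least 1 nt, same strand), distances and exact permutation tests over libraries were computed with Python 3.11.15, numpy 2.4.6, pandas 2.3.3 and scipy 1.17.1. They were tested on simulated data and checked against bedtools 2.31.1. Benjamini-Hochberg adjustment covered the 6 tests, and calls use 0.05. Coordinates are 1-based. Depth is unknown, so no counting interval is given.

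The sites, lists and tests were chosen with earlier results of these data known. By rule, named genes are the 10 with most sites and the 5 with the highest share among those with at least 20 reproducible hnRNP C peaks. Named sites, at most 1 per gene, are the 6 and, without crosslinking, the 3 with the best worst rank by read number. Gene lists by symbol were not applied, since 0 identifiers were matched to names, and the planned search for motifs and gene parts was not run, since no genome or annotation of hg19 was used. RBFOX2 libraries of 10000 and 1000 cells were not used. Alternatives were stricter p-values, at least 20 reads, an overlap of 50% of a site, replicate 2 as start, a margin of 100 nt to hnRNPI and RBFOX2, clusters under 30 nt, moved sites, weighting, a replicate block and leaving out each library.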

Additional observations from a re-analysis of the deposited data

Results flagged for a closer look

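Between low RNase libraries with PAGE and RecJ libraries without, the share of shared sites overlapped changed in opposite directions in different proteins, with every library of each later group on the same side. The change was 9.51 percentage points in hnRNPA1 and −2.97 in RBFOX2, a gap of 12.5. In hnRNP C it was 41.9, a gap of 44.9 to RBFOX2, and this value includes low RNase replicate 1 with 3268 peaks. Without that library the hnRNP C change was 18.6 and the gap 21.6. Between noUV libraries with and without PAGE, the change was 0.535 percentage points for the RBFOX2 antibody and −5.47 for the hnRNP C antibody, a gap of 6.001. List lengths changed too. From low RNase to RecJ, RBFOX2 lists fell from 260610 and 208407 peaks to 160983 and 160340, and hnRNP C lists grew. The hnRNPA1 lists fell from 515303 and 501950 to 450313 and 493269, although their share rose. Without crosslinking, RBFOX2 lists grew from 30170 and 22911 peaks with PAGE to 52842 and 61242 without. There hnRNP C lists fell from 299616 and 299307 to 187729 and 278452. Neither these 3 differences nor the part of list length in them was tested.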

How the results depend on the processing

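The start from hnRNPA1 peaks was chosen after seeing the data; the other alternatives were planned. The recovery difference (37.8 to 59.6 percentage points), the noUV antibody difference (16.8 to 32.1) and the comparison with sites of all 4 proteins (−51.5 to −44.3) kept direction and call under their 25, 25 and 24 alternatives, and the centre distance difference (10.2 to 14.9 nt) under its 20. Started from hnRNPA1 peaks, 12951 sites gave 52.6 percentage points, 27.9 percentage points and 10.5 nt for the recovery, noUV antibody and centre distance differences. The comparison with hnRNP C only was not past 0.05 at 20 or more reads (5.52), with 50% overlap (4.35) and with weighting by reads (5.59), and the cause was not tested. With 1 library left out it ranged from 5.97 to 7.95. The comparison with hnRNP C and hnRNPI ranged from −0.139 to 3.03 with 1 library left out. It reversed without noUV hnRNPA1 replicate 1 with PAGE (−0.110) and without replicate 2 of that antibody without PAGE (−0.139). With 1 library left out, the recovery difference was 49.2 to 59.6, the noUV antibody difference 26.3 to 27.7, the comparison with all 4 proteins −51.5 to −49.3 and the centre distance difference 10.2 to 12.6 nt.

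The number of sites was 6727 with 50% overlap and 7737 at p below 1e-05, both stricter by construction. At that p, recovery was 54.5% in 5k, 49.0% in 5k with RecJ, 33.9% in 500, 28.3% in 500 with RecJ, 32.0% at 10000 cells and 22.4% at 1000 cells, and 0.445%, 0.687% and 0.250% in the regions of 50 to 75, 75 to 100 and 150 to 250 kDa. Presence at the sites gave no sign that replicate numbers pair libraries. Over 28 pairs of groups, the deviations of same-numbered replicates correlated between −0.015 and 0.0183. These values cannot show whether same-numbered replicates were processed together. With the replicate block, the recovery difference was 51.7 (exact permutation p 0.00463), the noUV antibody difference 27.2 (0.00154) and the centre distance difference 11.4 nt (0.0313), the last p being the smallest it allows, and no call changed. Unknown depth limits what an absent peak can mean.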
